A study of Mus musculus with 3647 samples.

Results

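The cells described here are single neurons of the mouse thalamic reticular nucleus (TRN), sequenced after a patch pipette had recorded from them (Patch-seq) and divided by 2 genes, Spp1 and Ecel1. They were chosen by measured values. Of 95 Patch-seq samples, 92 had Gad1 or Gad2, the enzymes that make GABA, above 0 TPM (transcript abundance per gene length, scaled to a total of 1000000 in each library). Within these 92, the Spp1 side was the 31 cells with Spp1 above 0 and Ecel1 at 0, and the Ecel1 side was the 25 cells with Ecel1 above 0 and Spp1 at 0. These 56 cells are the members, out of 3647 samples in the series. A further 14 cells had both genes and 22 had neither. For comparison the same division was made in the Gad-positive TRN nuclei sorted for NeuN, a protein of neuronal nuclei. It gave 19 to 34 Spp1-side and 18 to 30 Ecel1-side nuclei on each of 8 plates. No treatment, genotype, strain, age or animal is named in the labels of either group. The labels call the Patch-seq samples nuclear RNA of the sNuc-seq sample type, as they do the sorted nuclei, and give no recording values, so no electrical property enters this account.

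The TRN is a shell of GABAergic neurons around the dorsal thalamus that receives excitation from cortex and thalamus and sends inhibition to thalamic relay cells. Its neurons fire bursts through low-threshold T-type calcium channels and can also fire fast trains, and they help to set sleep spindles and the gating of sensory input. Spp1 encodes osteopontin, a secreted glycoprotein of the extracellular matrix, and in brain it is made by some neurons and also by microglia and macrophages. Ecel1 encodes endothelin-converting enzyme-like 1, a membrane protein of the neprilysin family of peptidases that is made by neurons. Neurons with Spp1 and neurons with Ecel1 mark opposite ends of a molecular gradient in the TRN. The comparison asks which other genes, above all those for excitability and release, separate recorded cells of the 2 kinds, and how far that separation follows the one in sorted nuclei.

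The labels name no animal, so each side counts as 1 sample and cells are not replicates. No p-value or standard error was therefore computed, and every difference below is a description of these cells. The spread over cells and the value in each batch are given for some genes only. The Patch-seq samples were divided into 3 batches by name. The 54 samples whose names carry a plate well and the same lane were taken as 1 batch (the well-named batch). Their names have several prefixes, and the labels do not state that they form a batch. It held 13 Spp1-side and 16 Ecel1-side cells. The 34-sample batch held 14 and 8, and the 7-sample batch held 4 and 1, too few to give a difference of its own. Since TPM hold no read counts, depth is unknown, and the number of genes above 0 is given instead. It ran from 1427 to 13164 with a median of 6677 on the Spp1 side and from 2757 to 11742 with a median of 6857 on the Ecel1 side. Within batches the medians were 6443 against 5770 and 9443.5 against 9283, in the order well-named and 34-sample batch. In the nuclei, Spp1-side libraries had more genes, with a median of 5394.5 against 4811.5.

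Spp1 (ENSMUSG00000029304.14, chromosome 5, 104435118 to 104441050, plus strand, mm10) ranged from 53.2 to 3199 TPM on the Spp1 side with a median of 879.03. Ecel1 (ENSMUSG00000026247.13, chromosome 1, 87147655 to 87156521, minus strand) ranged from 1.0 to 706.02 TPM on the Ecel1 side with a median of 85.5. The lowest members were thus unlike. The 2 weakest Spp1-side cells had 53.15 and 78.96 TPM, while the 2 weakest Ecel1-side cells had 1.0 and 3.69 TPM of Ecel1, and 4 of the 25 were under 10 TPM. Gad1 ran from 341.53 to 4747 TPM on the Spp1 side (median 1270.1) and from 0 to 4108 TPM on the Ecel1 side (median 787.68). Some Ecel1-side cells had little of either Gad gene, such as those with Gad1 at 0, 0.48 and 1.68 TPM and Gad2 at 2.92, 5.77 and 0 TPM. The GABAergic identity of such cells is thus less secure. Just outside the rule, the cells with both genes included 1 with Ecel1 at 0.21 TPM and 1 with Spp1 at 6.12 TPM. Their medians were 310.71 TPM of Spp1 and 127.78 TPM of Ecel1, and Spp1 was the larger value in 10 of the 14. Spp1-side cells made up 33.7% of Gad-positive Patch-seq cells (exact binomial 95% interval 24.2 to 44.3%, which covers counting error only) and 32.3% of Gad-positive nuclei (28.8 to 36.02%). The Ecel1-side share was 27.2% (18.4 to 37.4%) of cells and 27.003% (23.7 to 30.5%) of nuclei. Cells with both genes were 15.2% in Patch-seq (8.58 to 24.2%) and 5.64% in nuclei (4.02 to 7.66%).

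Patch-seq cells with Spp1 had more RNA for a calcium sensor of fast release, sodium channel and neurofilament subunits and matrix proteins, while those with Ecel1 had more RNA for somatostatin, stathmin and a second set of sodium channel and pump subunits. Differences are Spp1 side minus Ecel1 side in mean log2(TPM + 1), taken within the 2 larger batches (27 against 24 cells) and combined by the number of cells, so a positive value is higher on the Spp1 side. On this scale a difference understates the fold of low genes. A size of 1 or more was the rule for calling a difference. Of 13143 genes with a value above 0 in at least 10 Gad-positive cells, 8.77% were called higher on the Spp1 side and 8.42% higher on the Ecel1 side. With the number of detected genes as a covariate the shares were 11.2% and 6.60%. They rest on few cells: the 34-sample batch by itself gave 15.3% and 13.6%, and the well-named batch by itself 11.9% and 13.2%.

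Syt2 led the Spp1 side. It encodes synaptotagmin 2, a calcium sensor for fast transmitter release (chromosome 1, 134646677 to 134762593). Its TPM had a lowest value of 0, a median of 85.6 and a highest value of 320.71 on the Spp1 side, and 0, 0 and 73.2 on the Ecel1 side. It was above 0 in 28 of 31 Spp1-side cells and in 6 of 25 Ecel1-side cells. The difference was 4.92, with 5.01 in the well-named batch and 4.79 in the 34-sample batch. Scn4b, the sodium channel beta 4 subunit linked to resurgent sodium current (chromosome 9, 45138395 to 45154152), had a median of 181.74 TPM and a highest value of 705.35 on the Spp1 side, where 30 of 31 cells were above 0. On the Ecel1 side the median was 0, the highest value was 395.81 and 12 of 25 cells were above 0. The groups overlap at the top, since a few Ecel1-side cells reached the levels of the Spp1 side, but medians were apart in both batches (214.54 against 0 and 200.12 against 2.1 TPM). Nefm, the medium neurofilament chain of large axons, was above 0 in every Spp1-side cell, from 64.2 to 2663 TPM with a median of 598.6. On the Ecel1 side 20 of 25 cells had it, with a median of 61.2 TPM, and the cell with the highest value of all, 3981 TPM, was an Ecel1-side cell.

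Hapln4, a link protein of the perineuronal net, had medians of 157.07 and 38.5 TPM on the Spp1 and Ecel1 side, and differed by 3.83. Fgf1, a fibroblast growth factor, had medians of 122.92 and 0 TPM and was above 0 in 30 of 31 and 11 of 25 cells. Col24a1, a fibrillar collagen, had medians of 84.2 and 0 TPM and was above 0 in 24 and 7 cells. The rest of the 12 genes of largest difference on this side, among those with 1 sign in both batches and a value in at least 25% of Spp1-side cells, were Tnfrsf12a (the receptor of the cytokine TWEAK, 4.00), Hhatl (3.29), Pcp4l1 (a relative of the calmodulin-binding protein Pcp4, 3.28), Sgpp2 (a sphingosine-phosphate phosphatase, 3.21), Fam98c (3.14) and Ogdhl (a mitochondrial dehydrogenase, 3.13). Each of these 12 genes had Ecel1-side cells above 0, and each but Nefm had Spp1-side cells at 0, so none of them divided the cells cleanly.

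Among the leading genes of the Ecel1 side was somatostatin. Sst, which encodes this peptide (chromosome 16, 23889573 to 23890958), had a median of 759.1 and a highest value of 4056 TPM on the Ecel1 side, where 21 of 25 cells were above 0. On the Spp1 side 14 of 31 cells were above 0, the median was 0 and the highest value was 1805 TPM. The Spp1 side was therefore mixed for somatostatin, with many cells at 0 and some as high as the Ecel1 side, and the difference was -4.51, with -3.63 in the well-named and -5.74 in the 34-sample batch. The vesicular GABA transporter Slc32a1, by contrast, had medians of 174.09 and 138.13 TPM on the Spp1 and Ecel1 side and a difference of 0.74.

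Zcchc12, a transcriptional coactivator of bone morphogenetic protein signalling, was above 0 in few cells of the Spp1 side, 3 of 31, and in 16 of 25 on the Ecel1 side, with medians of 0 and 109.15 TPM. Camkv, a kinase-like protein of synaptic vesicles and spines, had the same counts, 3 and 16 cells. Syt13, a synaptotagmin that does not bind calcium, had medians of 0 and 67.1 TPM. Atp1b2, the beta 2 subunit of the sodium-potassium pump, had medians of 0 and 76.9 TPM, and differed by -4.11. Stmn1, the microtubule regulator stathmin, had medians of 20.4 and 199.69 TPM and was above 0 in 24 of 25 Ecel1-side cells. Others among the 12 largest were Scn3b (sodium channel beta 3, -4.01), Cd200 (a membrane ligand of a myeloid cell receptor, -3.88), B3galnt1 (a glycosyltransferase, -3.80), Usp11 (a deubiquitinase, -3.62), Cnbp (a nucleic acid-binding protein, -3.62) and the already named Camkv (-3.58).

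**Figure D1:**
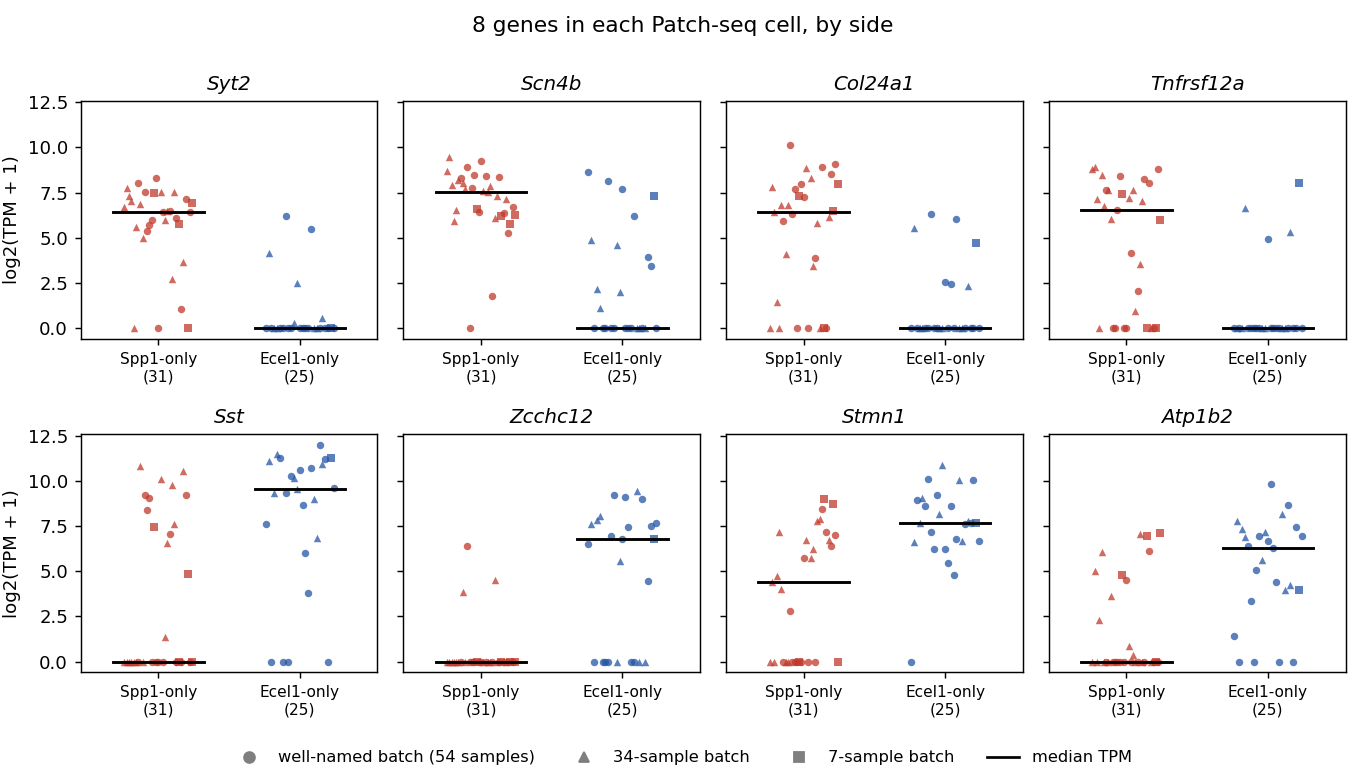
Values of 8 genes in each Patch-seq cell, as log2(TPM + 1) on the vertical axis, for the 31 Spp1-only cells (red) and the 25 Ecel1-only cells (blue). Each point is 1 cell, its shape gives the batch and the black bar is the median. Syt2, Scn4b, Col24a1 and Tnfrsf12a have a median of 0 on the Ecel1 side, and Sst, Zcchc12 and Atp1b2 a median of 0 on the Spp1 side, while every gene has cells at 0 on both sides.

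The same division of the nuclei shared part of the leading genes: of the 12 picked by size in Patch-seq, 5 on the Spp1 side and 6 on the Ecel1 side were also among the 12 picked in nuclei, and all 12 and 10 of 12 differed by 1 or more there in the same direction. The nuclei were not used to choose the Patch-seq cells and share no library with them. In nuclei 7.91% of the genes tested were called higher on the Spp1 side and 2.4% higher on the Ecel1 side. With the number of detected genes as a covariate the shares were 4.77% and 3.85%, and by the ratio of mean TPM they were 8.15% and 5.70%. The number of detected genes in nuclei was higher on the Spp1 side, and its part in the imbalance was not tested. The median difference over all genes was 0.15 in nuclei and 0.00 in Patch-seq. Of the genes called on the Spp1 side in nuclei, 80.4% were also positive in Patch-seq, where 50.1% of all tested genes were positive. Of those called on the Ecel1 side, 91.4% were also negative, where 49.9% of all tested genes were negative. For all 1355 called genes the share with the same sign was 82.95%, against 59.8% of all tested genes. For the called genes it was 76.6% in the well-named batch and 82.8% in the 34-sample batch. Of the called genes 44.1% had a difference of 1 or more in the same direction in Patch-seq, against 12.96% of all tested genes. Of the genes that differed by 2 or more in nuclei, 97.7% had the same sign in Patch-seq and 80.3% also passed 1.

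The comparison was also read from Patch-seq to nuclei. Of the genes called higher on the Spp1 side in Patch-seq, 90.3% were positive in nuclei, against 66.2% of all tested genes, and 36.9% passed 1 there, against 7.91% of all. Of those called higher on the Ecel1 side, 59.9% were negative in nuclei, against 33.5% of all tested genes, and 15.6% passed 1 there, against 2.4% of all. Across the 13143 genes, Pearson's r between the Patch-seq and the nuclear difference was 0.48 and Spearman's rho 0.36. It was 0.26 between the 2 Patch-seq batches, and each NeuN plate against the other 7 gave 0.47 to 0.63. These are descriptions across genes, which are not independent, and values from more cells vary less.

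**Figure D2:**
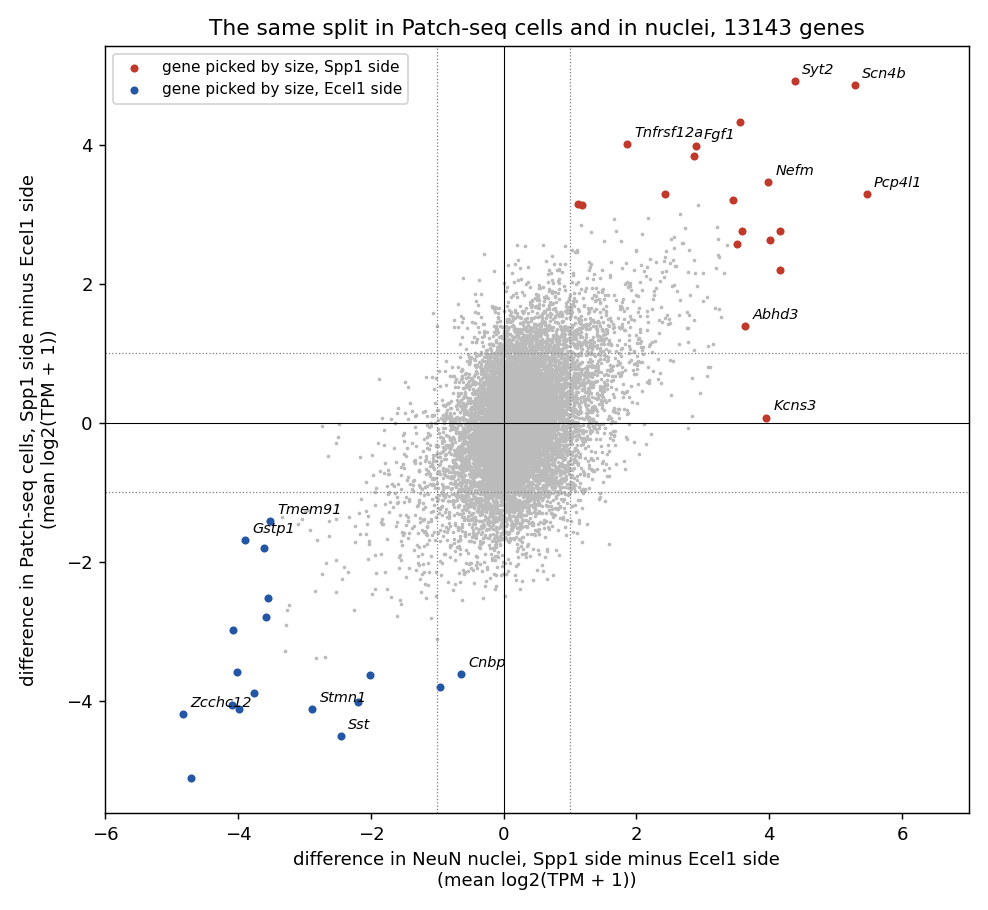
Difference between the Spp1 side and the Ecel1 side in mean log2(TPM + 1), in NeuN nuclei on the horizontal axis and in Patch-seq cells on the vertical axis, for 13143 genes (grey). Coloured points are the genes of each side picked by size in cells or nuclei and dotted lines mark a difference of 1. The coloured points lie where both differences have the same sign, and Kcns3 lies near 0 in Patch-seq at 3.95 in nuclei.

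Genes picked in nuclei for their size there show how the pattern carried over. In nuclei the 12 largest on the Spp1 side, among those of 1 sign in all 8 plates, were Pcp4l1, Scn4b, Syt2, Ntng2, Kcng4, Nefh, Nefm, Kcns3, Abhd3, Coro6, Col24a1 and Vamp1. In Patch-seq 11 of these 12 were higher on the Spp1 side by 1 or more. Vamp1, the synaptobrevin of fast motor and auditory synapses, had medians of 368.65 and 170.21 TPM in the cells and a difference of 2.57. Coro6, a coronin that binds actin, had medians of 378.5 and 61.06 TPM and a difference of 2.76. Ntng2, the synaptic adhesion protein netrin-G2, differed by 2.197 in the cells and 4.16 in nuclei. Abhd3 differed by 1.39 in the cells, but by 0.14 in the well-named batch and 3.13 in the 34-sample batch, so its value rests on the latter.

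Kcns3 was the exception. It encodes Kv9.3, a potassium channel subunit that forms channels only together with Kv2 subunits. In nuclei it differed by 3.95, from 2.91 to 5.09 over the 8 plates, and was above 0 in 75.7% of Spp1-side nuclei (69.4 to 81.2%) and 24.2% of Ecel1-side nuclei (18.1 to 31.1%). In Patch-seq it was above 0 in 17 of 31 Spp1-side and 12 of 25 Ecel1-side cells, and the highest value, 516.03 TPM, was on the Ecel1 side. The difference was 0.07, with 0.79 in the well-named batch and -0.94 in the 34-sample batch. Kcng4, which encodes the related silent subunit Kv6.4, differed by 2.76 in Patch-seq and 4.16 in nuclei.

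On the Ecel1 side the 12 genes picked in nuclei included Zcchc12, Syt13, 6330403K07Rik, Camkv, Atp1b2, Gstp1, Cd200, Cpne6, Pnck, Pgrmc1 and Tmem91, and each of the 12 was lower on the Spp1 side by 1 or more in Patch-seq. The smallest Patch-seq differences were those of Tmem91 (-1.41) and of Gstp1, a glutathione transferase (-1.69). Cpne6, a calcium-binding copine, differed by -1.81, Pgrmc1, a haem-binding membrane protein, by -2.52 and Pnck, a calmodulin-dependent kinase, by -2.80. 2 genes that were large in Patch-seq were small in nuclei: Cnbp at -0.64 and B3galnt1 at -0.96.

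The ion channel lists divided by subunit. Kv1 and Kv3 channels, which shorten spikes and allow fast firing, had 6 of 11 tested members called higher on the Spp1 side and 2 on the Ecel1 side, where 8.77% and 8.42% of all genes tested were called, with a median of 1.11 in the cells and 1.61 in nuclei. The same 2 shares over all genes stand behind each list count in Patch-seq that follows. All 11 had the same sign in cells and nuclei, against 59.8% of all genes tested. Kcna1 (Kv1.1) had medians of 208.63 and 87.58 TPM and differed by 1.75, and Kcnc1 (Kv3.1) had medians of 138.45 and 64.09 TPM, was above 0 in every Spp1-side cell and differed by 2.13. Kcnab3 and Kcnab2, their cytoplasmic beta subunits, differed by 2.15 and 1.94. The 2 on the other side were Kcna6 (Kv1.6, -2.54) and Kcnc2 (Kv3.2, -1.93), which were named after their values were seen, as were members below that are neither among the 4 of highest mean TPM in their list nor among the genes picked by size. Thus Kcnc1 was higher on 1 side and Kcnc2 on the other, in both batches and in all 8 plates of nuclei.

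Sodium channels were evenly divided, with 3 of 9 called on each side and a median of -0.09. Scn4b and Scn8a (Nav1.6, the main channel of spike initiation, 1.603) were among those higher on the Spp1 side. Scn3b, Scn2b (-1.75) and Scn2a1 (Nav1.2, -1.02) were higher on the Ecel1 side. Beta subunits thus fell on opposite sides, beta 4 with Spp1 and beta 3 and beta 2 with Ecel1. Scn1a (Nav1.1), with medians of 130.18 and 95.92 TPM, differed by 0.70. In the sodium-potassium pump list 2 of 6 members were called, both on the Ecel1 side and Atp1b2 among them, while the abundant Atp1b1 differed by 0.54.

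The channels behind TRN bursts also parted. T-type, SK and HCN channels had 3 of 9 called on each side and a median of -0.07. Of the T-type calcium channels, Cacna1h (Cav3.2) had medians of 42.96 and 0.07 TPM and differed by 2.38, and Cacna1i (Cav3.3, the main T-type channel of TRN dendrites) had medians of 62.99 and 14.56 TPM and differed by 1.77. Cacna1g (Cav3.1), the relay-cell form, was above 0 in 3 of 31 Spp1-side cells, at most at 6.22 TPM, and in 11 of 25 Ecel1-side cells, up to 230.17 TPM, and differed by -1.63. In nuclei the 3 genes differed by 3.24, 2.25 and -2.63. Kcnn2 (SK2), the calcium-activated potassium channel that follows T-type entry, had medians of 190.4 and 155.26 TPM and differed by 0.58 in the cells and 2.15 in nuclei. Hcn3 differed by -1.49. Among 12 high-voltage calcium channel genes none was called on the Spp1 side and 2 on the Ecel1 side, the subunits Cacnb3 (-2.81) and Cacna1e (Cav2.3, -1.48).

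Receptors for the TRN's inputs showed the same kind of exchange between family members. GABA-A subunits had 1 of 12 called higher on the Spp1 side and 4 on the Ecel1 side, with a median of -0.71 in cells and -0.66 in nuclei, and all 12 had the same sign in both. Gabrd, the delta subunit of extrasynaptic receptors, was the member on the Spp1 side (1.49). Gabrb1 (-2.62), Gabrb2 (-1.57) and Gabra4 (-1.01) were among those on the Ecel1 side. Gabra3, among the highest by mean TPM, differed by -0.32. Ionotropic glutamate receptors had 4 of 14 called on the Spp1 side, Grin2c (2.64), Gria3 (1.79), Grik1 (1.14) and Grin1 (1.01), and 2 on the Ecel1 side, Grik2 (-1.66) and Gria1 (-1.0007). Metabotropic receptors had 2 of 6 called on each side. Grm3 (3.13) and Grm8 (2.48), which couple to inhibitory G proteins, were higher with Spp1. Grm5 (-2.15), which couples to phospholipase C, was 1 of the 2 higher with Ecel1. Grm3 was above 0 in all 31 Spp1-side cells, from 27.3 to 704.61 TPM with a median of 306.96, and in 20 of 25 Ecel1-side cells with a median of 71.5 TPM.

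In the vesicle release list 3 of 19 members were called on the Spp1 side and 2 on the Ecel1 side, near the 8.77% and 8.42% of all genes, so the counts say nothing particular of the list. The called members were Syt2, Vamp1 and Cplx1 (complexin 1, 1.07) on the Spp1 side and Stx1a (syntaxin 1A, -3.12) and Cplx2 (complexin 2, -1.13) on the Ecel1 side. The general release proteins Snap25 and Syt1 differed by 0.36 and 0.40. All 4 neurofilament genes tested were called on the Spp1 side, Nefm, Nefh (2.63), Nefl (1.32) and Ina (1.04), with a median of 1.98 in cells and 2.74 in nuclei. Of 8 perineuronal net genes 4 were called on the Spp1 side, Hapln4, Hapln1 (2.49), Bcan (2.34) and Acan (aggrecan, 1.83), and none on the Ecel1 side. Acan was above 0 in 18 of 31 and 3 of 25 cells.

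**Figure D3:**
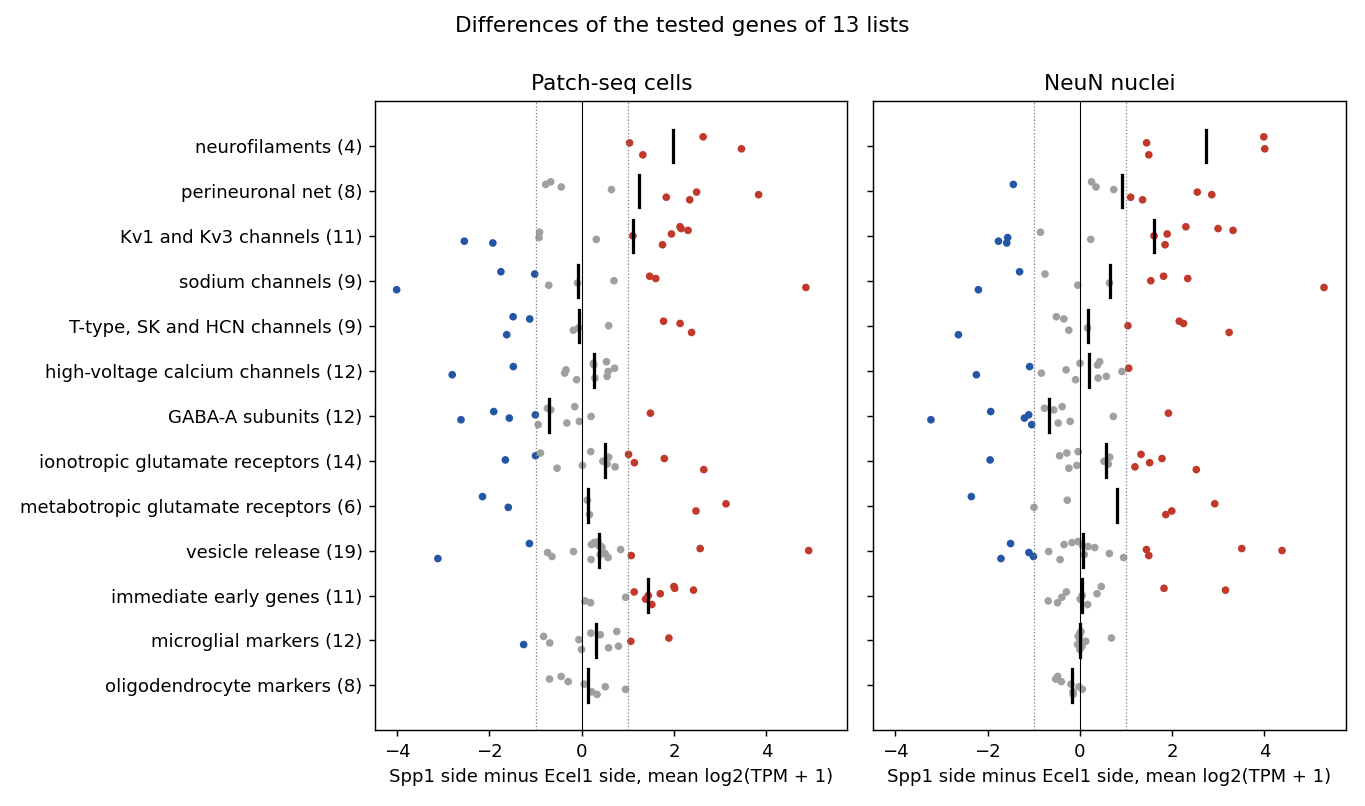
Differences between the Spp1 and the Ecel1 side in mean log2(TPM + 1) (horizontal axis) for the tested genes of 13 lists, in Patch-seq cells (left) and NeuN nuclei (right). Each point is 1 gene, red at 1 or more, blue at -1 or less and grey between, the black bar is the median of the list and the number after the name counts its genes. The neurofilament list lies to the right in both panels, the channel and receptor lists spread to both sides, and immediate early genes have a median of 1.44 in cells and 0.05 in nuclei.

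Immediate early genes, which neurons switch on within minutes of activity or stress, had differing values in cells and nuclei. In Patch-seq 8 of 11 were called on the Spp1 side and none on the Ecel1 side, with a median of 1.44. In both batches 9 of 11 were positive, against 3833 of the 13143 genes tested. In nuclei 2 of 11 were called on the Spp1 side, where 7.91% of all genes tested were, with a median of 0.05. All 11 were positive in the cells and 7 of 11 in nuclei, near the 66.2% of all genes tested that were positive there. Fos had a median of 195.26 TPM and a highest value of 1364 on the Spp1 side, against 43.1 and 312.08 on the Ecel1 side, and was above 0 in 25 of 31 and 15 of 25 cells. Its difference was 2.42, with 2.90 in the well-named batch and 1.75 in the 34-sample batch. In nuclei it was above 0 in 9.63% (6.06 to 14.3%) and 12.6% (8.18 to 18.4%), and differed by -0.29. Egr1 had medians of 158.64 and 50.49 TPM in the cells and differed by 1.70, and by -0.68 in nuclei. Jun (1.44 in cells, -0.48 in nuclei), Fosb (2.01 and 0.01), Ier2 (1.38 and -0.39) and Npas4 (1.52 and 0.46) were also called in the cells and not in nuclei. Arc, whose protein acts at synapses, was called in both (2.00 and 1.82), as was the phosphatase gene Dusp1 (1.14 and 3.16). The difference between cells and nuclei was not tested, and the way the cells were obtained cannot be told apart from it.

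Averaged over the 11 genes in each cell, mean log2(TPM + 1) ran from 0.57 to 8.51 with a median of 5.38 on the Spp1 side, and from 0 to 6.22 with a median of 3.63 on the Ecel1 side. The sides overlap over most of that range. Medians were 3.70 and 2.58 in the well-named batch and 6.47 and 4.68 in the 34-sample batch, so the batches differed by more than the sides did. The single Ecel1-side cell of the 7-sample batch, at 5.87, lay within the 1.38 to 6.72 of its 4 Spp1-side cells. In nuclei the medians were 1.87 and 1.29. A subset kept cells whose microglial RNA was at or below the median of all Gad-positive Patch-seq cells. In its 13 Spp1-side and 16 Ecel1-side cells the median of the list was 2.84.

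**Figure D4:**
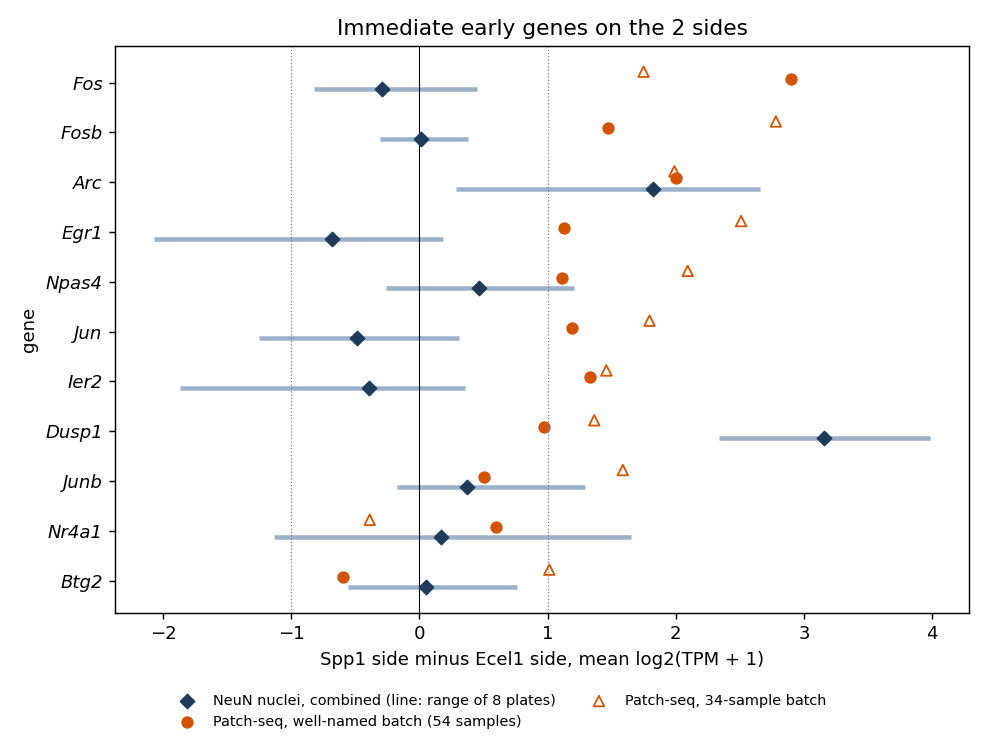
Difference between the Spp1 and the Ecel1 side in mean log2(TPM + 1) (horizontal axis) for 11 immediate early genes (vertical axis). Orange marks are the 2 larger Patch-seq batches, the diamond is the combined value in NeuN nuclei and the pale line spans its 8 plates. Both orange marks lie right of 0 for all genes but Nr4a1 and Btg2, while the diamonds lie between -0.68 and 0.46 for all genes but Arc and Dusp1.

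The known markers of the TRN were present on both sides. Pvalb, the calcium buffer parvalbumin that marks most TRN neurons, was above 0 in 30 of 31 Spp1-side cells (median 630.71 TPM) and 22 of 25 Ecel1-side cells (median 329.18 TPM). It differed by 2.07 in the 34-sample batch but by 0.09 in the well-named batch, and by 2.33 in nuclei. Six3, a transcription factor of TRN development, was above 0 in 29 and 22 cells and differed by 1.26. Isl1, a transcription factor, differed by 0.84 in the cells and 1.97 in nuclei. Summed over 8 reticular markers, the level was between 55.5 and 4388 TPM on the Spp1 side (median 1187.3) and between 168.99 and 5844 TPM on the Ecel1 side (median 1730), and no cell was at 0. The 8 include Sst, which was higher on the Ecel1 side, and the list median of the differences was 0.54, toward the Spp1 side. Calb1, the buffer calbindin, was above 0 in 17 of 31 and 5 of 25 cells and differed by 2.27, but by 0.06 in nuclei, where 4 plates were on each side of 0. Among 4 neuropeptide genes tested, Npy (1.61) was higher with Spp1, and Sst and Trh (-1.48), which encodes thyrotropin-releasing hormone, with Ecel1.

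RNA of other cell types was in the Patch-seq libraries of both sides. The 12 microglial markers summed to between 0 and 6185 TPM on the Spp1 side, with a median of 313.74, and to between 0 and 11704 TPM on the Ecel1 side, with a median of 41.3. No marker was at 0 in all cells of a side, and 1 cell of each side had none. In nuclei the medians were 2.17 and 0 TPM. The means in the cells, 1100.2 and 1024.1 TPM, were close, since a few Ecel1-side libraries were very high. Called members included Tyrobp (1.06) on the Spp1 side and Csf1r (-1.26) on the Ecel1 side, with a list median of 0.30. Oligodendrocyte markers had none of 8 called and summed to medians of 2755 and 1056.8 TPM (ranges 77.3 to 25338 and 69.6 to 25074). Astrocyte markers summed to medians of 716.56 and 210.13 TPM (ranges 12.98 to 1610 and 9.38 to 1266), and Aldoc (2.24) and Slc1a2 (1.37) were higher with Spp1, as they were in nuclei (1.30 and 1.75). Not all astrocyte markers followed: of 7 tested 4 were negative, Gja1 (-0.48) and Gfap (-0.26) among them, and the list median was -0.26. By batch that median was positive, at 0.23 in the well-named batch and 0.17 in the other larger batch. Of the markers, 3 were positive in both of these batches and 1 was negative in both. Across the settings tried the list median ran from -0.26 to 0.98, so its direction is not settled. Thalamic glutamatergic markers had medians of 11.85 and 48.8 TPM (ranges 0 to 212.14 and 0 to 394.53), with Rora (-1.84) called. Since microglia make Spp1, a cell could enter the Spp1 side through their RNA, and the part of this in the split was not tested. In the 13 and 16 cells with the lower microglial RNA, Syt2 differed by 5.60, Scn4b by 5.10 and Sst by -5.61. These genes were picked for large differences in cells that include this subset, so their values do not test that part.

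To place each cell on its own, a score was taken as the mean log2(TPM + 1) of the 12 Spp1-side genes picked in nuclei minus that of the 12 Ecel1-side genes. Neither Spp1 nor Ecel1 enters it. Its genes were picked by their differences in nuclei, and Patch-seq values entered the choice through the filter on genes tested, which asks for a value above 0 in at least 10 Gad-positive cells. On the Spp1 side it had a lowest value of -1.47, a median of 4.26 and a highest of 7.49, and 30 of 31 cells were above 0. On the Ecel1 side the values were -7.58, -1.79 and 3.88, and 18 of 25 cells were below 0. The sides overlapped: 18 Spp1-side cells lay above every Ecel1-side cell and 13 Ecel1-side cells below every Spp1-side cell. Medians were 3.57 and -1.51 in the well-named batch and 4.68 and -2.03 in the 34-sample batch. In the 7-sample batch, which gave no difference above, the 4 Spp1-side cells lay between 1.36 and 5.46, and the single Ecel1-side cell at 1.43.

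On the Ecel1 side 7 of 25 cells lay on the far side of 0 by this score, and on the Spp1 side 1 of 31. The 14 cells with both genes lay nearer the Spp1 side, from -3.43 to 6.01 with a median of 2.75 and 11 above 0. The 22 cells with neither spread from -5.42 to 4.31 with a median of 0.03, and 11 were above 0. They had fewer detected genes, with a median of 3966. Nuclei with both genes and nuclei with neither did not enter the choice of the genes, and showed the same order: a median of 2.41 with 30 of 38 above 0 for both, and of -0.89 for neither. The nuclei with neither had a median reticular marker sum of 515.77 TPM, against 1698.5 and 1780.5 TPM on the Spp1 and Ecel1 side. Their thalamic glutamatergic markers summed to a median of 299.94 TPM, against 0 and 11.27 TPM. The part of other cell types in their score was not tested.

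**Figure D5:**
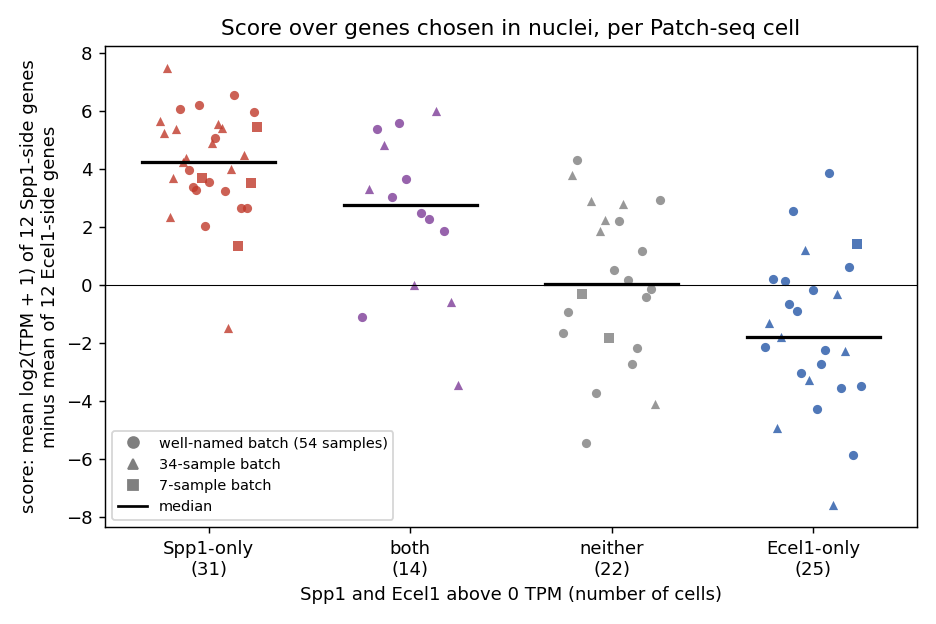
Score of each Gad-positive Patch-seq cell (vertical axis: mean log2(TPM + 1) of 12 Spp1-side genes minus that of 12 Ecel1-side genes, all picked in nuclei) by the genes it had above 0 TPM (horizontal axis). Each point is 1 cell, its shape gives the batch and the black bar is the median. Medians fall from 4.26 in Spp1-only cells through 2.75 with both and 0.03 with neither to -1.79 in Ecel1-only cells, and the classes overlap.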

How the data were processed

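Libraries were made with a modified Smart-seq2 protocol, per the labels' protocols, which describe sorting of nuclei and not the patch recordings. Bowtie, RSEM, TopHat2 2.0.10, Seurat 2.2.0 and the mm10 build are listed in the submitters' processing notes, with no role or order. The authors deposited the Patch-seq table as TPM (95 columns, 23420 genes). The TRN table was deposited by the authors as natural log values; each holds TPM multiplied by a number particular to its nucleus (0.377 to 1.60 in the NeuN nuclei), to which 1 was added before the log was taken. TPM were recovered from it by the exponential and scaling to 1000000, after which all 104001 values under 2 TPM lay within 0.1 steps of a multiple of 0.01. The columns of that table for other sorts were not used here. TPM carry no counts, so no count model was run.

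Tables were handled in Python 3.11.15 with pandas 2.3.3 and numpy 2.4.6, intervals came from scipy 1.17.1 and plots from matplotlib 3.10.9. Differences of mean log2(TPM + 1) were taken within each batch or plate with at least 3 cells of each side and weighted by the product over the sum of the 2 cell numbers; this leaves 5 cells of the 7-sample batch out. On simulated data the procedure recovered the shifts put in. The simulation drew normal noise around batch means and lacked the many values at 0 of these data, so it does not speak to their effect. Gene positions are from GENCODE M21. Named genes were up to 12 per direction in each set with a difference of at least 1, 1 sign in both batches (or all 8 plates) and, in Patch-seq, a value above 0 in at least 25% of the higher side, and the 4 members of each list with the highest mean TPM. The members, the 34 lists (1 of which, genes of the mitochondrial genome, had no gene in the tables) and the comparisons were chosen with earlier results of these data known. Some genes that met the naming rule are not reported here. No result rests on a p-value. The alternatives, 24 in all, changed the pseudocount, the filter, the scaling, the split, the strata and the libraries included.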

Additional observations from a re-analysis of the deposited data

How the results depend on the processing

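The shares of called genes changed with the scale. They are given as a percent of genes tested, the Spp1 side first and the Ecel1 side second, followed by the percent of nuclear calls that had the same sign in Patch-seq. With a pseudocount of 10 TPM in place of 1 they were 1.82 and 1.29% in Patch-seq and 1.82 and 0.84% in nuclei, with 94.8% of the same sign. With the log2 ratio of mean TPM they were 15.4 and 15.7% in Patch-seq and 5.70% on the Ecel1 side in nuclei, with 71.9%. With detected genes as a covariate they were 4.77 and 3.85% in nuclei, with 85.4%. The share of the same sign was 86.1% when a marker counted as present from 10 TPM and absent below 1 TPM, 79.7% with Gad1 and Gad2 both required, 78.3% with Slc17a6 at 0, and 80.7% in the cells of lower microglial RNA, where 15.3% of genes were called on the Spp1 side. Without the well-named batch the Patch-seq calls were 15.3 and 13.6%, and without the 34-sample batch 13.2% on the Ecel1 side with 76.6% of the same sign. The cause of these changes was not tested. Leaving out the 7-sample batch changes nothing by construction, and leaving out any 1 NeuN plate kept each number of calls within 1.5 times.

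Every gene named by its size, apart from Kcns3, kept its sign in Patch-seq under all 15 settings that bear on Patch-seq. Some of these settings could not change a sign. Leaving out the gene filter or the smallest batch does not alter a gene's difference. Genes picked in Patch-seq were required to have the same sign in both larger batches. For them, leaving out either batch or weighting the batches equally could not reverse that sign. They were also picked for large differences in these same cells. Kcns3 ran from -0.94 to 0.79. The neurofilament median ran from 1.13 to 2.51, that of perineuronal net genes from 0.56 to 1.43, of Kv1 and Kv3 channels from 0.71 to 2.03, of immediate early genes from 0.97 to 2.84 and of GABA-A subunits from -0.86 to -0.40. Medians of sodium channels (-0.28 to 0.18) and of T-type, SK and HCN channels (-0.31 to 0.55) crossed 0. No paired analysis was possible because the sides are classes of cells and carry no replicate numbers. Depth is unknown, so a gene at 0 TPM may be present below detection, above all in libraries with few genes.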

Other observations

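Lists outside the comparisons above gave the following counts, to be read against the 8.77% and 8.42% of all genes called on the Spp1 and the Ecel1 side in Patch-seq. Of 77 ribosomal protein genes 12 were called on the Ecel1 side and 1 on the Spp1 side in Patch-seq, with a median of -0.32 (-0.02 in the well-named and -0.83 in the 34-sample batch) and -0.31 in nuclei. Without batch strata the Patch-seq median was 0.17, so its direction is not settled. Of 80 nuclear-encoded genes of the respiratory chain 16 were called on the Spp1 side and 5 on the Ecel1 side, with a median of 0.33 in cells and 0.28 in nuclei, and Ndufa4 differed by 1.95. Among 18 cadherins and protocadherins, which mediate adhesion, Pcdh9 (2.38) and Cdh13 (1.38) were higher with Spp1 in cells and nuclei (2.43 and 1.73), and Pcdh19 (-1.59) was higher with Ecel1 (-1.51 in nuclei). Cdh8 differed by -1.42 in cells and 0.36 in nuclei, where the plates were evenly divided.

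Of 23 other potassium channel genes 6 were called on the Spp1 side and 4 on the Ecel1 side. Kcnip1, a calcium-binding partner of Kv4 channels, was above 0 in all 31 Spp1-side cells and differed by 2.18, and Kcnk1, a two-pore channel, differed by 1.37. Of 11 acetylcholine and noradrenaline receptors 3 were called with Spp1, among them the alpha 1D adrenoceptor Adra1d (2.03, and 2.05 in nuclei), and 1 with Ecel1. Of 8 genes that bind osteopontin outside the cell, the integrin subunits Itgav (1.26) and Itgb1 (1.12) were called with Spp1 and none with Ecel1. In the neprilysin family, without Ecel1, Ece2 (-1.08) was called among 5 genes, and differed by 0.03 in nuclei. Of 18 transcription factor genes Six3 and Nr2f2 (1.09) were called with Spp1, and Mef2c (-1.37) was among the 2 called with Ecel1, near the shares over all genes. None of 5 gap junction genes was called in Patch-seq; Gjd2, the connexin 36 of electrical synapses between TRN neurons, differed by 0.58 in cells and 1.32 in nuclei.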
